A study of Mus musculus with 96 samples.

Results

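Base excision repair and the replication machinery it borrows were followed through 34 genes, chosen by name out of the 48795 gene rows of the deposited tables, and all 34 were found. They comprise 10 DNA glycosylases, 5 genes of incision, gap filling and ligation, the nucleases Fen1 and Exo1, the sliding clamp Pcna with the 5 subunits of its loader, 4 subunits each of DNA polymerase delta and epsilon, and the 3 subunits of replication protein A. RNA had been sequenced from cerebral cortex and striatum of 48 C57BL/6 mice at 6 months of age, giving 96 libraries. The 6 genotypes were wild type, heterozygous Q140 knock-in, Msh6+/-, Msh6-/-, heterozygous Q140 with Msh6+/-, and heterozygous Q140 with Msh6-/-. Each had 8 mice, 4 male and 4 female, and each mouse gave both tissues. Q140 is a knock-in allele of Htt, the Huntington's disease gene, with an expanded CAG repeat, and "Q140" below means 1 copy of it. The labels give no further construction of either allele, and the libraries come from whole dissected tissue, with all its cell types.

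In base excision repair a glycosylase removes a damaged or wrong base, the endonuclease Apex1 cuts the strand at the empty site, polymerase beta (Polb) fills the gap, and Lig3 with its scaffold Xrcc1 seals it. A longer patch uses polymerase delta or epsilon, Pcna and the flap nuclease Fen1. Mismatch repair, in which Msh6 helps to recognise mispaired bases, uses Exo1. It shares Pcna, the clamp loader, replication protein A and the replicative polymerases with the longer patch. Expanded CAG repeats of Htt are known to lengthen further in somatic cells, the striatum among them, and mismatch repair and base excision proteins are known to take part. Most neurons of the adult brain no longer divide. The comparisons asked whether these genes change where Msh6 is lost and whether they change with Q140.

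Library totals ran from 12403528 to 22886441 counts. Genes were kept by edgeR's filter on low counts, after which 17503 were tested in striatum and 17622 in cortex. All 34 members were tested in striatum and 32 in cortex, where Neil3 and Pole2 had too few counts (0 to 3 and 1 to 12 per library). A gene is called where its adjusted p, from edgeR's quasi-likelihood test with Benjamini-Hochberg adjustment over all genes tested, is under 0.05. The Msh6 transcript followed its genotype labels: the Msh6-/- effect averaged over both Htt genotypes was -1.16 ± 0.05 in striatum and -1.22 ± 0.03 in cortex (log2 fold change ± SE). Htt CPM values (counts scaled to library size) were 240 ± 7.73 in wild-type and 220 ± 7.88 in Q140 striatum (SD, n = 8), and whole-gene counts do not tell the 2 alleles apart. The labelled tissues differed in their markers, with summed striatal projection neuron markers of 10058 to 13039 CPM in the 24 striata without Q140 and 355 to 442 in the matching cortices. One striatum, of a Q140 Msh6-/- mouse, stood apart with a summed choroid plexus and ependyma marker level of 2827, against 62.6 at most in the other striata with Q140.

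**Figure D1:**
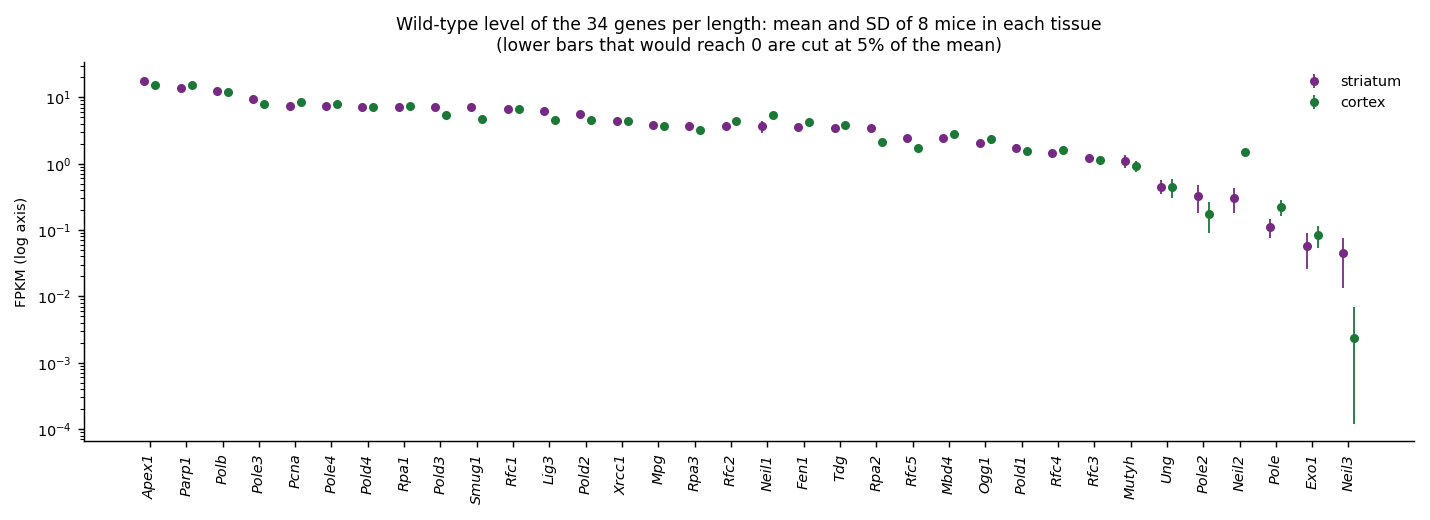
FPKM (fragments scaled to gene length and library size, log axis) of the 34 genes in wild-type striatum and cortex, as the mean and SD of 8 mice, ordered by striatal level. Apex1, Parp1 and Polb lie above 12 in both tissues, and Pole, Exo1 and Neil3 at or below 0.224.

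Per length, 3 of the 5 genes of incision, gap filling and ligation were the most abundant members. In wild-type striatum Apex1 stood at 17.9 ± 1.02 FPKM (SD, n = 8), Parp1, which senses strand breaks, at 13.9 ± 0.842, and Polb at 12.5 ± 0.567. The same 3 genes led in cortex, with Parp1 at 15.3 ± 0.931, Apex1 at 15.2 ± 0.741 and Polb at 12.1 ± 0.894, so that Parp1 and Apex1 did not differ there beyond their spread. The other 2 of the 5 were lower in striatum, Lig3 at 6.23 ± 0.354 and Xrcc1 at 4.36 ± 0.338. Next in striatum came the small polymerase epsilon subunit Pole3 at 9.32 ± 0.967, then 6 genes from Pcna to Smug1 between 7.52 and 7.05, whose neighbours lay within 1 SD of each other. Glycosylases were lower, among them Smug1 at 7.05 ± 0.853, Neil1 at 3.66 ± 0.774, Ogg1 at 2.07 ± 0.233 and Mutyh at 1.11 ± 0.261. Ung stood at 0.453 ± 0.107. The catalytic subunits of the 2 replicative polymerases were far apart, Pold1 at 1.75 ± 0.209 and Pole at 0.111 ± 0.0362, and Exo1 (0.0583 ± 0.0328) and Neil3 (0.0449 ± 0.0316) closed the list. These last 3 rest on few counts in striatum, 11 to 68 per library for Pole, 3 to 23 for Exo1 and 0 to 16 for Neil3.

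Wild-type striatum and cortex differed in 21 of the 34 members (12 higher and 9 lower in striatum) in a fit of all 96 libraries, in which 72.4% of 18440 genes were called, 35.9% higher and 36.5% lower. Neil2, a glycosylase for oxidised bases in single-stranded DNA, showed the largest called fall, at 0.302 ± 0.122 FPKM in striatum and 1.49 ± 0.164 in cortex (log2 -2.29, 95% interval -2.62 to -1.96). Neil3, its relative, went the other way, with 0.255 ± 0.178 CPM in wild-type striatum and at most 3 counts in any cortical library of the study. Pole was lower in striatum (log2 -1.01, -1.35 to -0.66), while Rpa2 (0.69, 0.54 to 0.83), Smug1 (0.56, 0.42 to 0.70), Rfc5 (0.49, 0.35 to 0.63) and Lig3 (0.45, 0.38 to 0.51) were higher. Among the other called members the absolute log2 change ran from 0.14 in Parp1 to 0.87 in Pole2. Apex1 was higher in striatum by 0.23 (0.14 to 0.32), whereas no difference was called for Polb (0.05, -0.02 to 0.13), Xrcc1 (-0.02, -0.12 to 0.07) or Rpa1 (-0.06, -0.13 to 0.01). With the mouse as a replicate block, which pairs the 2 tissues of an animal, 21 members were again called, the same 21 genes.

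Loss of Msh6 was not accompanied by a called change of any member in either tissue. The Msh6-/- effect averaged over both Htt genotypes called 0 of 34 members in striatum and 0 of 32 in cortex, where 0.263% and 0.284% of all genes were called. At an unadjusted p under 0.05 there were 2 members in striatum and 0 in cortex. The 2 were Pold2 at 0.10 ± 0.04 (adjusted p = 0.651 by edgeR) and Pole4 at -0.09 ± 0.04 (adjusted p = 0.67 by edgeR). DESeq2 and limma on log2 FPKM also called 0 members in both tissues. The 3 largest fitted changes were all in genes of few counts in striatum, Pole2 at -0.29, Neil3 at 0.24 and Neil2 at 0.20, and in cortex they were Pole at -0.19, Pold1 at 0.10 and Rfc5 at 0.09.

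**Figure D2:**
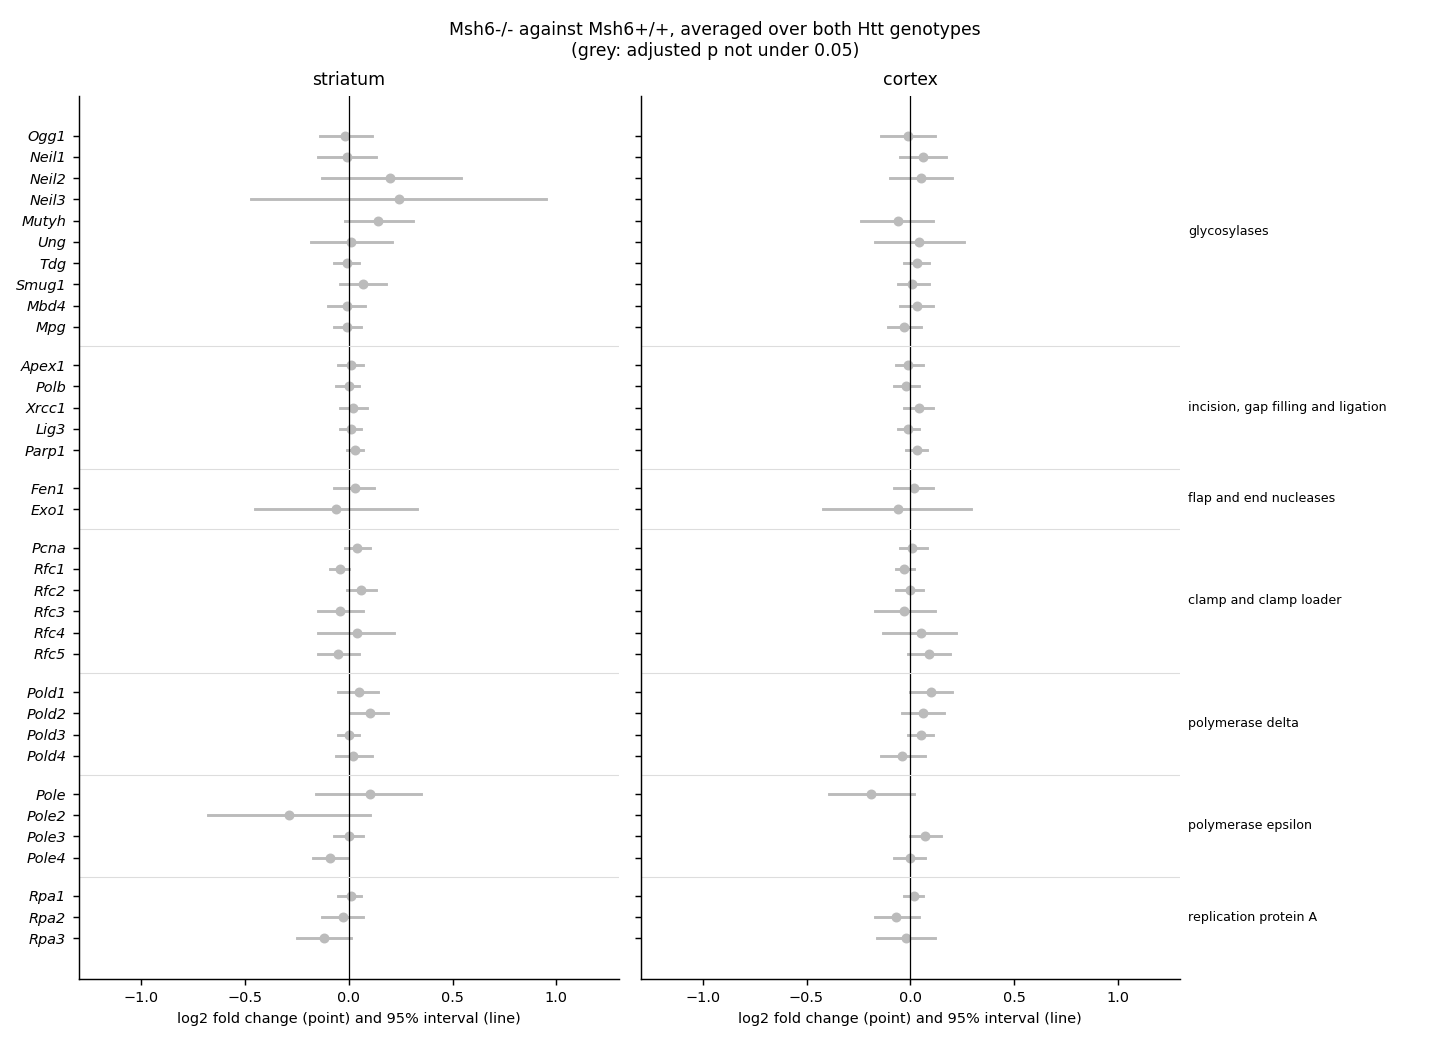
Log2 fold change (points) and 95% interval (lines) of Msh6-/- against Msh6+/+, averaged over both Htt genotypes, for each member by role, in striatum and cortex. Every point is grey because no adjusted p fell under 0.05, and the widest striatal interval, of Neil3, runs from -0.47 to 0.95.

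The intervals say how large a change these data leave room for. In striatum 25 of 34 lay wholly within 0.2 on the log2 scale to either side of no change, which is 14.9% upward, and in cortex 26 of 32 did. Narrow striatal intervals were found in the core of short-patch repair: -0.05 to 0.07 for Apex1, -0.06 to 0.05 for Polb, -0.04 to 0.06 for Lig3, -0.01 to 0.07 for Parp1 and -0.04 to 0.09 for Xrcc1. Among the glycosylases they were -0.07 to 0.05 for Tdg, -0.07 to 0.06 for Mpg, -0.10 to 0.08 for Mbd4, -0.04 to 0.18 for Smug1, -0.14 to 0.11 for Ogg1 and -0.15 to 0.13 for Neil1. Less was settled for Ung (-0.18 to 0.21), Mutyh (-0.02 to 0.31), Neil2 (-0.13 to 0.54) and Neil3, all of which have fewer counts.

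Among the members of replication and mismatch repair, Pcna had a striatal interval of -0.02 to 0.10. Of the clamp loader, Rfc1, the large subunit, had -0.09 to 0.00, Rfc2 -0.01 to 0.13, Rfc3 -0.15 to 0.07, Rfc4 -0.15 to 0.22 and Rfc5 -0.15 to 0.05. Exo1, the exonuclease that removes the mispaired strand, was poorly bounded at -0.45 to 0.33, and Fen1 had -0.07 to 0.12. Polymerase delta gave -0.05 to 0.14 for Pold1, 0.01 to 0.19 for Pold2, -0.05 to 0.05 for Pold3 and -0.06 to 0.11 for Pold4. Polymerase epsilon gave -0.07 to 0.07 for Pole3 and -0.17 to -0.01 for Pole4, and wide ones of -0.16 to 0.35 for Pole and -0.68 to 0.10 for Pole2. Replication protein A, which coats single-stranded DNA, gave -0.05 to 0.06 for Rpa1, -0.13 to 0.07 for Rpa2 and -0.25 to 0.01 for Rpa3. The intervals of Pold2 and Pole4 leave out 0 before adjustment and were not called after it. In cortex the widest was that of Exo1 (-0.42 to 0.29) and narrow ones included Rpa1 (-0.03 to 0.06) and Lig3 (-0.06 to 0.04).

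Within single Htt backgrounds the members were also uncalled. Msh6-/- against wild type called 0 members in striatum (0.0971% of all genes, 2 members at an unadjusted p under 0.05) and 0 in cortex (0.131%, 2 members). Q140 Msh6-/- against Q140 called 0 in striatum (0.177%, 2 members) and 0 in cortex (0.153%, 3 members). One copy of Msh6 gave the same: averaged over Htt genotypes, Msh6+/- called 0 in striatum (0.0229%, 4 members unadjusted) and 0 in cortex (0.0113%, 3 members). Msh6+/- against wild type called 0 in striatum (0.0114%, 3 members) and 0 in cortex (0.00567%, 0 members), and Q140 Msh6+/- against Q140 called 0 in each (0.00571% and 0.0113%, 2 members in each). DESeq2 called 0 members in each of these comparisons too.

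Beyond the 34 genes, none of 14 other base excision and single-strand break repair genes and none of the 33 (striatum) or 32 (cortex) tested of 34 other replication fork genes was called for Msh6-/-. The smallest adjusted p by edgeR was 0.792 in the first list and 0.526 in the second in striatum, and 0.908 and 0.058 in cortex.

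Q140 gave a different picture in striatum. Averaged over the 3 Msh6 genotypes, 19 of the 34 members were called, 15 higher and 4 lower, and the set was thus called at about the rate of the tissue as a whole (52.7% of all genes, 29.1% higher and 23.6% lower). Among all genes called, 5098 were higher and 4127 lower on counts, and 8237 and 2530 by limma on log2 of FPKM plus 0.1, where 24 members were called, 22 of them higher. Without the mouse with high choroid plexus markers 19 were again called, 18 of them the same genes. The median log2 change of the members was 0.09, against 0.02 over all genes tested. Rfc5 fell by 30.1%, and Pole, Neil3 and Exo1, all with few counts, rose by 61.4%, 60.6% and 31.1%. Of the 8 members called with the smallest adjusted p, 5 rose by 7.18% to 18%, and Mbd4 fell by 12.5%.

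**Figure D3:**
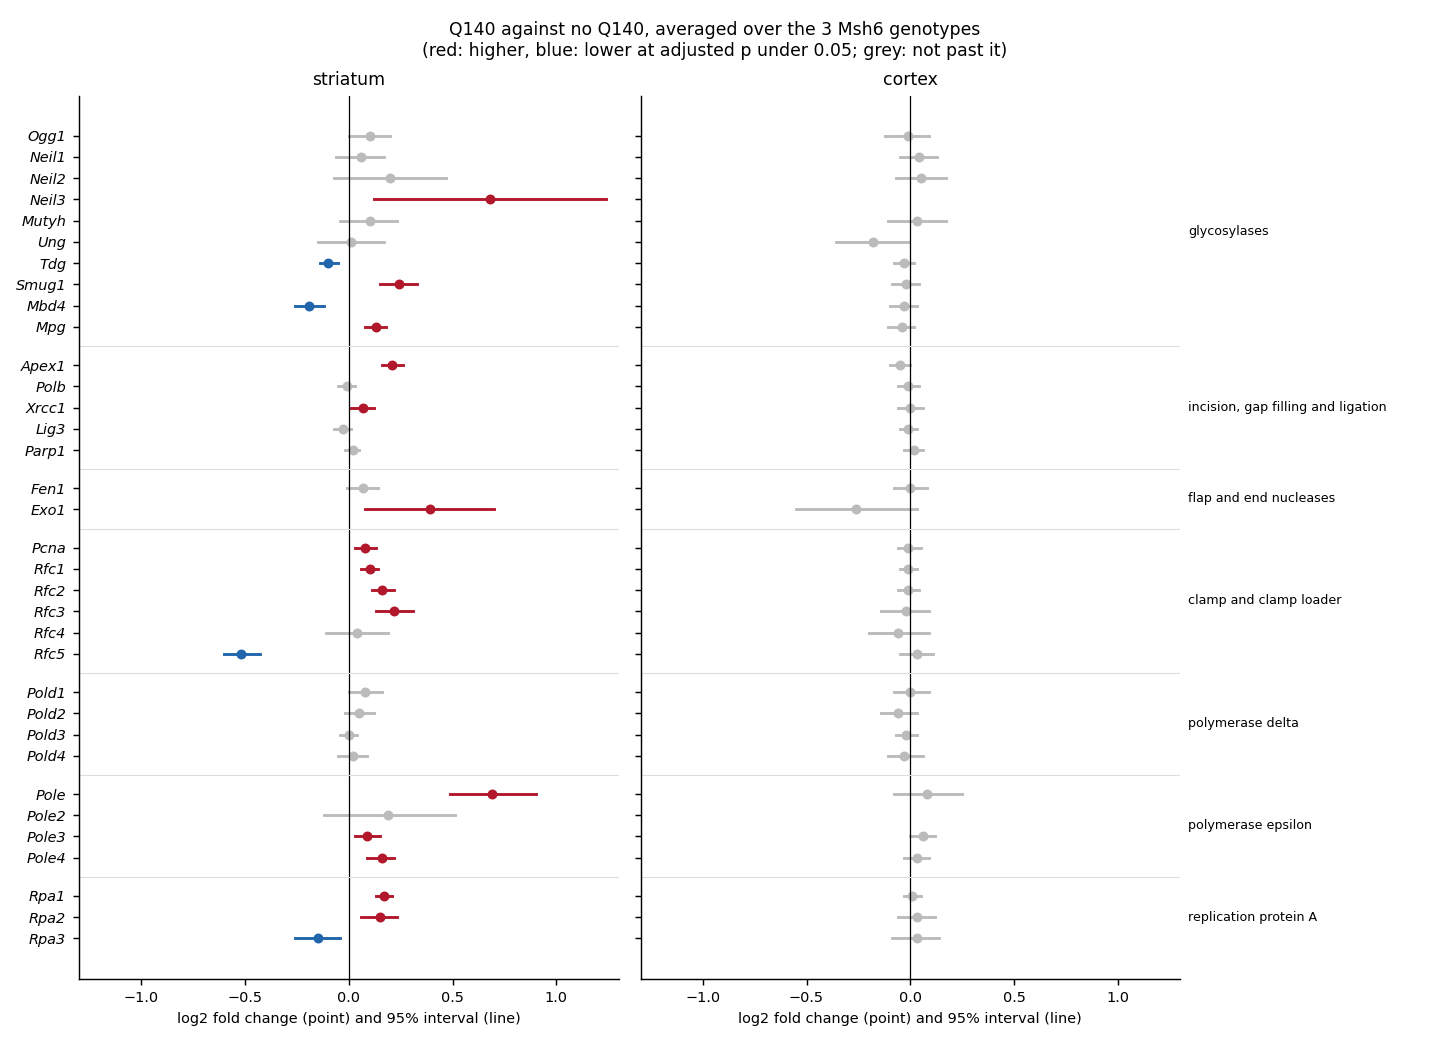
Log2 fold change (points) and 95% interval (lines) of Q140 against no Q140, averaged over the 3 Msh6 genotypes, for each member by role, in striatum and cortex. In striatum 15 members are red (higher) and 4 blue (lower), and in cortex all 32 are grey (not called).

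The same libraries had other tissue-wide differences. Of 10 striatal projection neuron markers, 9 fell and 1 rose with Q140, and their summed level ran from 10058 to 13039 CPM in the 24 striata without Q140 and from 6523 to 7416 in the 24 with it. All 8 microglial and all 8 endothelial markers fell, with median summed levels of 424 without and 380 with Q140 for microglia and ranges of 205 to 278 and 175 to 216 for endothelium. Of 8 astrocyte markers 6 fell (4151 to 4892 and 3622 to 4283), as did 6 of 8 oligodendrocyte (5407 to 7976 and 4451 to 6516) and 3 of 7 oligodendrocyte precursor markers (217 to 267 and 207 to 247). Of 7 tested interneuron markers 1 rose and 3 fell (1300 to 1534 and 1335 to 1441), of 7 cortical glutamatergic markers 3 rose and 2 fell (31.8 to 44.4 and 34 to 52.3), and of 5 choroid plexus and ependyma markers 3 rose. Of 13 tested proliferation markers 2 rose and 1 fell. Their median log2 change was 0.41, against 0.02 over all genes tested, and 5 had an unadjusted p under 0.05 by edgeR. Their summed level ranged from 7.78 to 38.7 without and from 9.13 to 35.5 with Q140. By group its lowest and median values were 8.13 and 17.8 in wild type and 9.13 and 19.7 in Q140. They were 7.78 and 23.6 in Msh6+/- and 20.4 and 23.7 in Q140 Msh6+/-. In Msh6-/- they were 8.71 and 14.2, and in Q140 Msh6-/- 21 and 25.2. No defining marker was at 0 in every library of a group. In whole tissue fewer cells of a type and less RNA per cell cannot be told apart, and the part of these shifts in the members' changes was not tested.

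The clamp loader held the member with the smallest adjusted p and moved in both directions. Rfc5 (ENSMUSG00000029363, minus strand of chr5:117378103-117389047, GRCm38) encodes 1 of the 4 small subunits. In wild-type striatum it had 10.8, 11.6 and 12.5 CPM (lowest, median and highest of 8 mice) and in Q140 striatum 6.66, 7.77 and 9.13. It had 9.89, 10.9 and 13.4 in Msh6+/- and 7.1, 8.31 and 10 in Q140 Msh6+/- mice, and 10.5, 11.6 and 12.1 in Msh6-/- and 6.1, 7.8 and 9.14 in Q140 Msh6-/- mice. The Q140 mice lay wholly below their counterparts in wild-type and Msh6-/- backgrounds and overlapped them slightly in Msh6+/-, and 23 of all 24 Q140 mice were below the lowest of the 24 mice without Q140. The log2 fold change was -0.52 ± 0.04 (SE; adjusted p = 1.07e-15 by edgeR) averaged over Msh6 genotypes, and -0.55, -0.43 and -0.56 within Msh6+/+, Msh6+/- and Msh6-/- mice, and averaged it was -0.30 on log2 of FPKM plus 1.

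The other loader subunits and the clamp moved up or were not called. Rfc2 stood at 21.8 to 27.6 CPM in the 24 striata without Q140 and 24.9 to 31.2 in those with it, rising by 0.16 ± 0.03 (adjusted p = 2.24e-06 by edgeR). By group its median rose from 23.5 to 27.1 in Msh6+/+, from 24.7 to 26.6 in Msh6+/- and from 24.7 to 28.5 in Msh6-/- mice, with overlap in each pair. Rfc1, the subunit that opens the clamp with the others, had group medians of 40.9 in wild-type, 40.2 in Msh6+/- and 39.6 in Msh6-/- striatum, and 43.9, 42.3 and 42.5 in the matching Q140 groups. Its rise was 0.10 ± 0.02 (adjusted p = 9.72e-06 by edgeR), and all 24 Q140 mice lay above the mean of those without it, though the ranges overlapped. Rfc3 rose by 0.22 ± 0.04 (4.09 to 4.52 CPM in the group means without Q140, 4.89 to 5.19 with it) and Pcna by 0.08 ± 0.03, while Rfc4 was not called (0.04, 95% interval -0.11 to 0.19). All 6 members on chromosome 5, the chromosome of Htt, lay at least 30.35 Mb from it, among them Rfc1, Rfc2, Rfc3, Rfc5 and Pole.

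**Figure D4:**
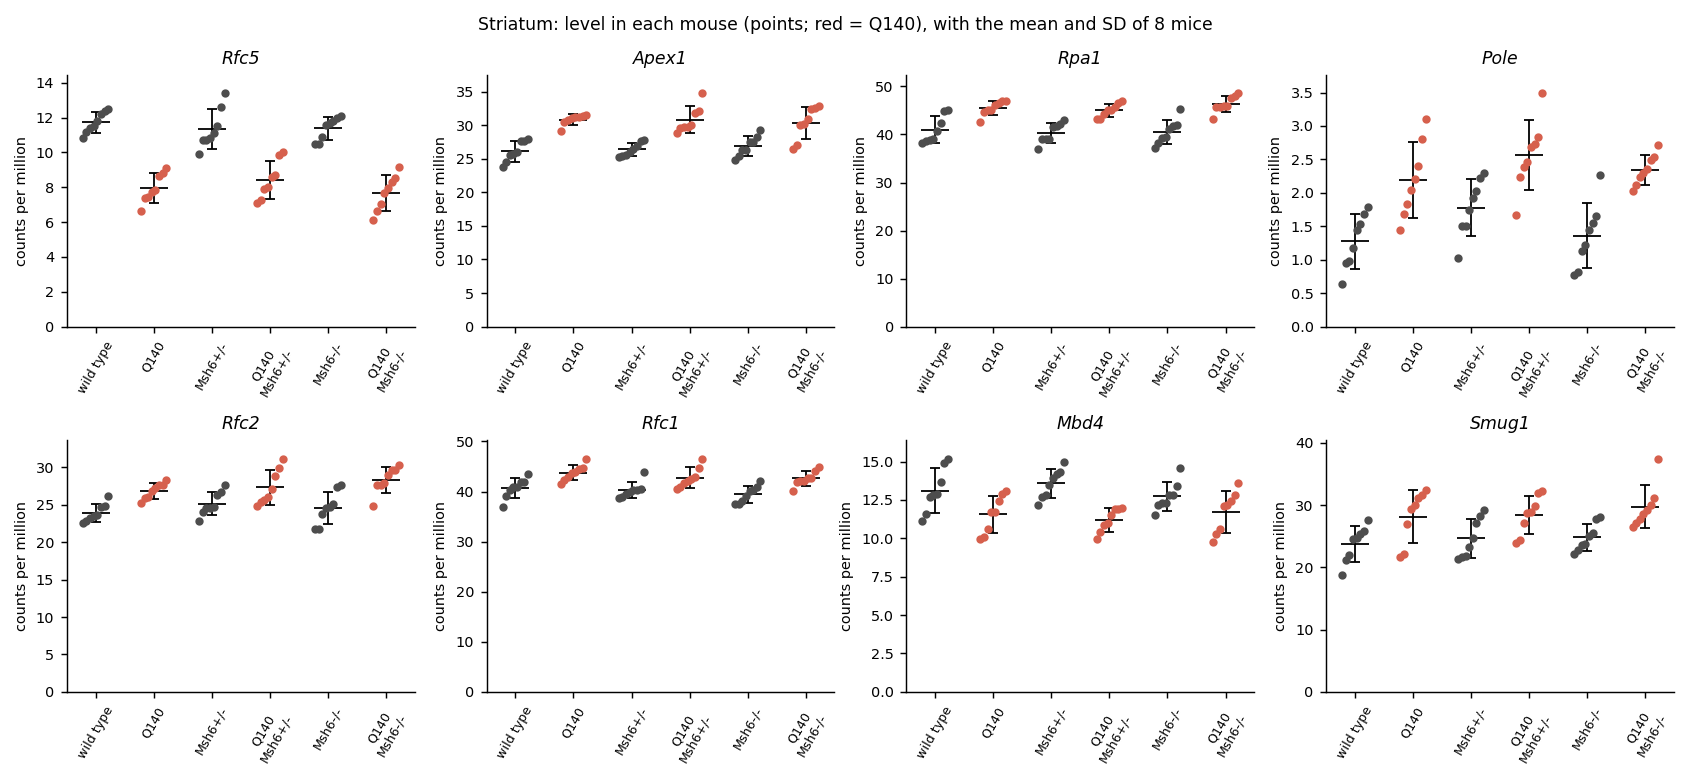
CPM in each striatum (points, red for Q140; mean and SD of 8 mice in black) for the 8 members with the smallest adjusted p for Q140, by genotype, on axes that start at 0. Rfc5 drops from group means of 11.3 to 11.7 to means of 7.67 to 8.43, while Apex1, Rpa1, Rfc2 and Rfc1 rise by steps that are small beside their levels.

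Promoter sequence of loader subunits is shown because these subunits of 1 complex moved in different directions. The stretches come from RefSeq windows of GRCm38.p6 that hold 250 bases before the start site, which matched 29 of the 34 members, with 1 window taken for each gene, and Rfc2 had no entry. Each is the longest run of those bases outside every annotated exon, printed 5′ to 3′ on the gene's own strand. Capitals mark a CCAAT box (CCAAT) or a GC box (GGGCGG) on either strand, so that ATTGG is the first read from the other strand. They lie at chr5:65335671-65335889 (minus strand) for Rfc1, chr5:151651243-151651458 (minus) for Rfc3, chr16:23127738-23127792 (minus) for Rfc4 and chr5:117389048-117389138 (minus) for Rfc5.
Rfc1: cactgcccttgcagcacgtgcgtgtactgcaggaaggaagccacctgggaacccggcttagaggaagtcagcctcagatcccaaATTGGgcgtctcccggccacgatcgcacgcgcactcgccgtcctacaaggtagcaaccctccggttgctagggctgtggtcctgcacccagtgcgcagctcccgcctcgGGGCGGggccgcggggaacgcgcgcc
Rfc3: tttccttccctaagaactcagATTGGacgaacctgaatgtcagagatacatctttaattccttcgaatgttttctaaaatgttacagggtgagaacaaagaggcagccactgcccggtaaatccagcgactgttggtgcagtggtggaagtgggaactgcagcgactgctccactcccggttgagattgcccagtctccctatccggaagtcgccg
Rfc4: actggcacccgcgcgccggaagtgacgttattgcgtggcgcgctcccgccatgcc
Rfc5: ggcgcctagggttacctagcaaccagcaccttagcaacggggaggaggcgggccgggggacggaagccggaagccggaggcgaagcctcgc
In these stretches Rfc1 held 1 CCAAT and 1 GC box and Rfc3 held 1 CCAAT box, and the shorter stretches of Rfc4 and Rfc5 held neither. Over the full 250 bases Rfc5 held none of the motifs searched, Rfc4 held 1 GC box, Rfc1 held 2 GC boxes, and Rfc3 also held 1 E2F-like core. The E2F-like core was TTCCCGC on either strand, or as alternative spellings TTGGCGC, and also TTCGCGC, and lastly TTGCCGC, and it may overlap a CCAAT or a GC box. CCAAT was found in the 250 bases of 16 of the 29 matched members, against 34.5% of all 27025 genes with such a window, the GC box in 18 (32.9% of all) and the E2F-like core in 6 (7.97% of all). The E2F-like core was in 5 of the 12 members called higher with Q140, 1 of the 4 called lower and 0 of the 13 not called. In the same groups CCAAT was in 9 of 12, 3 of 4 and 4 of 13, and the GC box in 6, 2 and 10. Whether these groups differ in any motif was not tested. These are counts of letters, not of bound sites.

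In the short-patch core, Apex1 was the member that moved. Apex1 (ENSMUSG00000035960, plus strand of chr14:50924968-50927139, GRCm38) had 23.8, 25.9 and 27.9 CPM (lowest, median, highest) in wild-type striatum and 29.1, 31.1 and 31.5 in Q140. In Msh6+/- mice it had 25.3, 26.3 and 27.8 without and 28.8, 29.9 and 34.8 with Q140, and in Msh6-/- mice 24.9, 27 and 29.3 without and 26.5, 30.5 and 32.9 with it. The groups did not overlap in the first 2 backgrounds and overlapped in the third. Averaged, Apex1 rose by 0.21 ± 0.02 (adjusted p = 1.98e-10 by edgeR). The scaffold Xrcc1 was called at 0.07 ± 0.03 (adjusted p = 0.0413 by edgeR) and lost that call in 6 of 8 other settings, leaving out the mouse with high choroid plexus markers among them. Polb (-0.01, 95% interval -0.05 to 0.03), Lig3 (-0.03, -0.07 to 0.01) and Parp1 (0.02, -0.02 to 0.05) were not called, and their intervals are among the narrowest of the set.

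The glycosylases split. Smug1, which removes uracil, rose by 0.24 ± 0.05 (adjusted p = 1.22e-05 by edgeR). Its striatal CPM (lowest, median, highest) were 18.8, 24.7 and 27.6 in wild type and 21.7, 29.7 and 32.5 in Q140, 21.4, 24 and 29.2 in Msh6+/- and 24, 28.8 and 32.3 in Q140 Msh6+/-. In Msh6-/- they were 22.2, 24.4 and 28.1, and in Q140 Msh6-/- 26.5, 29 and 37.5, so that the ranges overlapped in all 3 pairs. Mpg, which removes alkylated bases, rose by 0.13 ± 0.03 (14.7 ± 0.945 to 16.1 ± 0.924 CPM, SD, n = 24 in each). The 2 glycosylases that act on mismatched thymine, Mbd4 and Tdg, both fell. Mbd4 changed by -0.19 ± 0.04 (adjusted p = 1.02e-05 by edgeR), with medians of 12.9 and 11.7 (wild type and Q140), 13.7 and 11.2 (Msh6+/- pair) and 12.6 and 12.2 (Msh6-/- pair). The Msh6+/- pair did not overlap (12.2 to 15 and 9.97 to 12), while wild-type and Q140 mice (11.1 to 15.2 and 9.97 to 13.1) and the Msh6-/- pair (11.5 to 14.6 and 9.77 to 13.6) did. Tdg changed by -0.10 ± 0.02, from 19.8 ± 1.3 to 18.5 ± 0.734 (n = 24 in each), and was not called on the FPKM scale, where it was -0.02 at the smallest. Neil3 was called at 0.68 ± 0.28 on 0 to 16 counts per library. Ogg1, Neil1, Neil2, Mutyh and Ung were not called, the largest of them being Neil2 at 0.20 (-0.07 to 0.47). Neil2, Pole2 (0.19) and Ogg1 (0.10, adjusted p = 0.077 by edgeR) were the 3 largest changes that were not called in the whole set.

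Polymerase epsilon and delta differed in their counts of called subunits. Of epsilon, the catalytic subunit Pole and the histone-fold subunits Pole3 and Pole4 rose, and Pole2 was not called (0.19, -0.12 to 0.51). Pole had medians of 1.31, 1.83 and 1.34 CPM in wild-type, Msh6+/- and Msh6-/- striatum and 2.12, 2.57 and 2.32 with Q140. Its ranges were 0.63 to 1.79, 1.02 to 2.3 and 0.772 to 2.26 without Q140 and 1.45 to 3.11, 1.67 to 3.49 and 2.03 to 2.72 with it, overlapping in each pair. The change was 0.69 ± 0.10 (adjusted p = 1.01e-07 by edgeR), and 0.11 on log2 of FPKM plus 1, a scale that compresses a gene of so low a level. Pole4 rose by 0.16 ± 0.03 and Pole3 by 0.09 ± 0.03. Of polymerase delta 0 of 4 subunits were called in striatum: 0.08 for Pold1 (-0.00 to 0.16), 0.05 for Pold2 (-0.02 to 0.12), 0.00 for Pold3 (-0.04 to 0.04) and 0.02 for Pold4 (-0.05 to 0.09). Whether the 2 polymerases differed from each other was not tested.

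Replication protein A moved in both directions. Rpa1, its large DNA-binding subunit, rose by 0.17 ± 0.02 (adjusted p = 2e-09 by edgeR). Its CPM ran from 38.3 to 45 in wild-type and 42.7 to 47 in Q140 striatum (medians 39.9 and 45.6), from 36.9 to 43.1 and 43.3 to 46.9 in the Msh6+/- pair (40.3 and 45.1), and from 37.2 to 45.3 and 43.3 to 48.6 in the Msh6-/- pair (40.3 and 46). The Msh6+/- pair did not overlap and the others did, and all 24 Q140 mice were above the mean of those without Q140. Rpa2 rose by 0.15 ± 0.04 and Rpa3, the smallest subunit, changed by -0.15 ± 0.05, a call that was lost on the FPKM scale (-0.07 at the smallest). Of the nucleases, Exo1 was called at 0.39 ± 0.15 on 3 to 23 counts per library, a call lost when the filter on low counts was dropped, while Fen1 was not called (0.07, -0.01 to 0.14). The mean of Exo1 went from 0.505 to 0.818 CPM with Q140 in Msh6+/+ and from 0.501 to 0.761 in Msh6-/- mice. In Msh6+/- mice it did not rise, at 0.759 ± 0.224 without and 0.688 ± 0.248 with Q140 (SD, n = 8 in each).

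By Msh6 background, Q140 against wild type called 13 members (11 higher, 2 lower) where 29.7% of all genes were called (15.5% higher, 14.2% lower). Q140 Msh6+/- against Msh6+/- called 10 (7 and 3; 31.2% of all genes, 16.3% and 14.9%), and Q140 Msh6-/- against Msh6-/- called 9 (7 and 2; 33% of all genes, 17.8% and 15.2%). Smug1, Apex1, Rfc1, Rfc5, Pole and Rpa1 were called in all 3, although in Msh6+/- mice Rfc1 lost its call under 5 of 9 other settings (DESeq2 among them) and Smug1 under 2, with the animal number prefix as covariate and without the sex term. Tdg, Mbd4, Mpg, Rfc2 and Pole4 were called in 2 of the comparisons. Fen1 (0.20 ± 0.07), Exo1 (0.69 ± 0.27) and Pole3 (0.13 ± 0.05) passed against wild type alone, and Rfc3 (0.34 ± 0.08) in Msh6-/- mice alone, and 19 members were called in none. The call of Pole3 against wild type was lost under 6 settings, DESeq2 and the fit without the sex term among them. That of Exo1 was lost under RLE scaling, without the filter, with the prefix covariate, with only the 2 groups and without the mouse with high choroid plexus markers. On the FPKM scales Mbd4 lost its call against wild type and Tdg its calls in Msh6+/- and Msh6-/- mice, and Tdg in Msh6-/- mice also lost it without the filter, with only the 2 groups and without that mouse. Being called in one background and not another is no difference between backgrounds: the interaction of Q140 with Msh6-/- called 0 members in striatum and 0 in cortex (0% and 0% of all genes; 2 and 4 members at an unadjusted p under 0.05), and that with Msh6+/- called 0 in each (0% and 0%; 4 and 2 members). DESeq2 called 0 members in these 4 tests. The smallest striatal adjusted p for the interaction with Msh6-/- was 0.965, of Pold3 at 0.16 (95% interval 0.05 to 0.26). Pairs of groups without overlap were 2 members in the wild-type pair (7.11% of all genes), 3 in the Msh6+/- pair (8.12%) and 1 in the Msh6-/- pair (8.59%), all named above.

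Genes around the members behaved as follows with Q140 in striatum. Of all genes, 29.1% were called higher and 23.6% lower in this comparison. Of 14 other base excision and single-strand break repair genes 9 were called higher and 2 lower, among them Tdp1, which removes trapped topoisomerase (0.14 ± 0.03), Nudt1, which clears oxidised nucleotides (0.24 ± 0.06), the glycosylase Nthl1 (0.24 ± 0.07) and the mitochondrial polymerase Polg (-0.07 ± 0.02). Of 33 tested replication fork genes 14 rose and 1 fell. The fall was that of Clspn, a checkpoint mediator at the fork (-1.28 ± 0.06). Clspn was also far higher in wild-type striatum than in wild-type cortex (log2 5.97 ± 0.15), and whether its fall goes with that of the projection neuron markers was not tested. The primase genes Prim1 (0.38 ± 0.06) and Prim2 (0.35 ± 0.04) and the alternative clamp loader subunit Chtf18 (0.61 ± 0.08) rose. Among mismatch repair genes, Mlh3 (0.12 ± 0.02) and Msh3 (0.14 ± 0.03) rose. The medians of the base excision and fork lists were 0.08 and 0.11 on the log2 scale, against 0.02 over all genes. In cortex 0 genes of these 2 lists were called (0 and 2 at an unadjusted p under 0.05, by edgeR).

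In cortex no member was called for Q140. Averaged over Msh6 genotypes 0 of 32 were called (1.54% of all genes; 1 member, Ung, at an unadjusted p under 0.05), against wild type 0 (0.017%; 1 member), in Msh6+/- mice 0 (0.193%; 0 members) and in Msh6-/- mice 0 (0.136%; 2 members). DESeq2 and limma on log2 FPKM called 0 in each. The members' log2 changes ran from -0.26 to 0.08, and 28 of 32 intervals lay within 0.2 on the log2 scale.

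The cortical levels of the 8 members with the smallest adjusted p show how little the groups were apart. Ung had group means of 2.45, 2.42 and 2.06 CPM in wild-type, Msh6+/- and Msh6-/- cortex and 1.67, 2.36 and 2.08 with Q140 (SD 0.281 to 0.764), a change of -0.18 (95% interval -0.36 to -0.01, adjusted p = 0.335 by edgeR). The lowest of these, Q140 alone, ran from 1.31 to 2.07 and overlapped wild type, 1.4 to 3.86. Pole3 had means of 16, 16.7 and 16.5 without and 16.3, 17.4 and 17.6 with Q140, and Apex1 had 21.8, 22.5 and 22.1 without and 21.8, 21.1 and 21.3 with it. Exo1 had 0.716, 0.717 and 0.775 without and 0.701, 0.561 and 0.597 with Q140, and Mpg 14, 14.5 and 14 without and 13.9, 13.8 and 13.4 with it. Pold2 (8.61, 8.2 and 8.93 without; 8.01, 8.35 and 8.39 with), Tdg (21.1, 21.4 and 21.4 without; 20.8, 20.5 and 21.3 with) and Pole (2.51, 2.69 and 2.26 without; 2.89, 2.53 and 2.49 with) complete the 8. In each of them the ranges of all 6 genotypes overlapped.

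The Q140 effect itself differed between striatum and cortex in 13 members (11 with a higher and 2 with a lower effect in striatum), where 37.5% of all genes differed, 21.4% higher and 16.2% lower. Rfc5 differed by -0.54 (95% interval -0.66 to -0.43, adjusted p = 2.62e-13 by edgeR), Apex1 by 0.26 (0.19 to 0.33), Rpa1 by 0.16 (0.11 to 0.22), Smug1 by 0.27 (0.15 to 0.38) and Pole by 0.61 (0.35 to 0.87). Rfc2, Mpg, Rfc1, Rfc3, Pole4, Exo1 and Pcna also had a higher effect in striatum, and Mbd4 a lower one. The difference of Pcna was lost under DESeq2, RLE scaling, no filter and without the mouse with high choroid plexus markers, that of Pole4 without the filter, and that of Mbd4 on both FPKM scales. With the mouse as a replicate block 14 members differed, the 13 among them. For the 6 members called with Q140 in striatum but not here (Neil3, Tdg, Xrcc1, Pole3, Rpa2 and Rpa3) no difference between the tissues was shown.

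Rfc5 and Pole can be set beside their tissue levels, in comparisons that share the wild-type striata. Rfc5 had 11.7 ± 0.626 CPM in wild-type striatum, 7.96 ± 0.843 in Q140 striatum and 8.17 ± 0.758 in wild-type cortex. Pole had 1.27 ± 0.407, 2.19 ± 0.563 and 2.51 ± 0.71 in the same groups. These CPM were scaled within each tissue, not across both. Of the other members called in both comparisons, Rfc2 and Pcna were lower in wild-type striatum than in wild-type cortex and rose with Q140. Apex1, Smug1, Rpa2, Pole3 and Neil3 were higher in wild-type striatum and rose further with Q140, and Mbd4 and Tdg were lower and fell further.

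Annotation limits how firmly single genes can be read. In GENCODE, 20 of the 34 members overlap another gene, 15 of them one on the opposite strand, and whether the counting used strand is not given in the sources used here. Rfc5 shares 10.7% of its exonic bases with Wsb2 on the opposite strand, which had 206 CPM in wild-type striatum and changed by -0.16 ± 0.02 with Q140 there (adjusted p = 5.56e-08 by edgeR). Apex1 shares 61.7% of its exonic bases with Pip4p1, which changed by -0.02 ± 0.02 (adjusted p = 0.38), and Mpg shares 35.7% with Nprl3 (-0.01 ± 0.02). Rfc2 shares 15.1% with Lat2, which was at 1.69 CPM and changed by -0.29 ± 0.10. The largest share was that of Fen1, 78.8% with Gm10143 on the opposite strand. Rfc4, at 2.25 CPM in wild-type striatum, shares 12.7% with Eif4a2 on the opposite strand. Eif4a2 had 426 CPM there and changed by 0.20 ± 0.02 with Q140 (adjusted p = 1.25e-15 by edgeR). The part of these neighbours in the members' counts was not tested.

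Male and female mice differed in 1 member per tissue. Polb was higher in females in striatum by 0.10 ± 0.02 (adjusted p = 0.0031 by edgeR), where 5.54% of all genes were called. Rfc5 was lower in females in cortex by 8.71% (-0.13 ± 0.04, adjusted p = 0.0471), where 6.31% were called, and it lost this call without the filter, with the animal number prefix as a covariate and without the mouse with high choroid plexus markers.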

How the data were processed

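Total RNA of cortex and striatum was sequenced from stranded TruSeq libraries, and the submitters' processing notes name STAR 2.7.5c, SAMtools 1.10, HTSeq 0.12.3 and the GRCm38 build. No source used here gives the strand setting or annotation release. The authors deposited raw read counts per gene, used for all tests, and FPKM values, used for levels between genes. CPM values were scaled by TMM. Each tissue's 48 libraries were fitted with edgeR 4.0.16 (R 4.3.3) by genotype and sex, after filterByExpr (minimum count 10, minimum total 15), with p-values adjusted over all genes tested. Tissues were compared in 1 fit of 96 libraries and 12 groups plus sex. SE is given for log2 fold changes and SD for levels. The fit was checked on simulated counts with 1 common spread for all genes and changes placed only in genes of higher counts. That check does not cover the members with few counts. Gene overlaps come from GENCODE M21. Members, lists and tests were chosen with earlier results of these data known. Every member is accounted for: levels in every group are given for the 8 with the smallest adjusted p for Q140 in each tissue, and from other lists up to 4 called genes are named. The animal number ties the cortex and striatum of a mouse: over 18440 genes their residuals correlated at a median of 0.087 (48 animals, from -0.038 to 0.174), against -0.002 between different animals. Alternatives were DESeq2 1.42.0, a fit with RLE size factors, dropping the filter, dropping sex, the prefix of the animal number as covariate, limma 3.58.1 on log2 of FPKM plus 0.1 or 1 (mean FPKM at least 0.1), an adjusted p of 0.1, only the 2 groups compared, and leaving out 1 mouse. The mouse left out, of Q140 Msh6-/- genotype, is the one with high choroid plexus markers. Leaving out every other mouse in turn was not done. Some genes of the mismatch repair list are not reported here.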

Additional observations from a re-analysis of the deposited data

Results flagged for a closer look

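Among 168 groups of 8 mice (14 named members, 6 genotypes, 2 tissues), 10 held a mouse far from the others, where chance gives about 1 in 20 groups. In striatum, the lowest Q140 mouse had 29.1 CPM of Apex1 and the next 30.5. The highest Msh6+/- mouse had 1.24 of Exo1 (next 0.854), another 23.9 of Pole3 (next 20.3) and another 43.9 of Rfc1 (next 40.6). The highest Q140 Msh6-/- mouse had 37.5 of Smug1 (next 31.1), and the highest Q140 Msh6+/- mouse 20.8 of Tdg (next 18.8). In cortex, the highest Q140 Msh6+/- mouse had 24.8 of Apex1 (next 21.6), and the lowest Q140 mouse 6.13 of Pold2 (next 7.79). The lowest wild-type mouse had 37.1 of Rpa1 (next 40.9), and the lowest Msh6+/- mouse 18.4 of Tdg (next 21). These were 10 different mice, and the mouse with high choroid plexus markers is not among them.

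The Q140 effect differed between striatum and cortex, by the test of the difference itself (edgeR, adjusted over all genes), in 13 members. That is 38.2% of the 34, close to the 37.5% of all genes that differed. On the log2 scale the difference was -0.54 for Rfc5 and -0.16 for Mbd4. It was 0.65 for Exo1, 0.61 for Pole, 0.27 for Smug1, 0.26 for Apex1, 0.25 for Rfc3, 0.18 for Rfc2, 0.18 for Mpg, 0.16 for Rpa1, 0.14 for Pole4, 0.11 for Rfc1 and 0.10 for Pcna. Their adjusted p ran from 2.62e-13 for Rfc5 to 0.0301 for Pcna.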

How the results depend on the processing

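No result reversed under any alternative, and every count of members called for Msh6, for the interactions, and for Q140 in cortex was 0 in all settings. For Q140 averaged in striatum, 15 of the 19 members called were called under every setting that tested them, and Exo1, Rpa3, Tdg and Xrcc1 were not. With limma on log2 FPKM, Q140 against wild type in striatum called 20 members with 0.1 added (13 by edgeR on counts), and Q140 Msh6-/- against Msh6-/- called 18 with 0.1 and 18 with 1 added (9 on counts). The share of all genes called on the FPKM scales is not given for these comparisons. The larger counts therefore cannot be read as a result about the members. Over all genes, Q140 averaged in striatum gave 5098 higher and 4127 lower by edgeR, 4722 and 4391 with RLE scaling, and 8237 and 2530 on FPKM plus 0.1 (8209 and 2536 plus 1), where the median log2 change was 0.078, against 0.02 on counts. The FPKM values carry the plain library total and no TMM scaling. At counts of at least 20, 100% of them matched 1 fixed length per gene within 0.1%. The part of this scaling in the difference was not tested. Female against male called 1 member per tissue. In striatum it called 3 at an adjusted p of 0.1 and 2 with either FPKM scale. In cortex it called 5 at an adjusted p of 0.1, 3 by DESeq2 and by either FPKM scale, and 0 without the filter, with the animal number prefix as covariate, or without the mouse with high choroid plexus markers.

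With the mouse as a replicate block, 21 members differed between wild-type tissues and 14 differed in their Q140 effect. Depth limits the members with few counts: for Msh6-/- in striatum the 95% intervals of Exo1 (-0.45 to 0.33), Neil3 (-0.47 to 0.95) and Pole2 (-0.68 to 0.10) reach past 0.2 on the log2 scale.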
